A study of Homo sapiens with 4 samples.

Results

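The prostaglandin synthesis and receptor genes measured here are 10 genes chosen by symbol from the deposited mRNA table, out of 19610 symbols in that table. They are the cyclooxygenase genes PTGS1 and PTGS2, the prostaglandin E synthase genes PTGES, PTGES2 and PTGES3, the prostacyclin synthase gene PTGIS, the prostaglandin-inactivating dehydrogenase gene HPGD, and the receptor genes PTGER2, PTGER4 and PTGFR. Together they hold 35 of the 79798 transcripts of the table, and each symbol covers 1 gene ID. No measured value entered the rule of choice, but the genes were chosen with earlier results of these data known.

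RNA came from hFOB 1.19, a clonal line of human fetal osteoblasts immortalized with a temperature-sensitive SV40 large T antigen, so that it proliferates at the lower temperature and slows down and differentiates at the higher one. There were 4 libraries, 1 per time point. The day 0 library is labelled as the control and, by the study's methods, comes from cells kept at the lower temperature, and the libraries of days 3, 6 and 9 come from cells undergoing mineralization at the higher one. All cells grew in DMEM/F12 with serum, and the methods name no other agent for the mineralizing cells. Day 0 and the lower temperature cannot be told apart, and neither can a later day and the time spent at the higher temperature. With 1 library per time point no value has a replicate check, and the time points were compared by size alone, without a test or p-values.

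Levels are FPKM (fragments per kilobase of transcript, scaled to the mapped fragments of the library) as the authors deposited them, summed over the transcripts of a gene. They are per length, so genes can be set in order within a library. The files hold no reads for them, so the depth behind each value is unknown. Changes are log2 ratios to day 0 of FPKM + 1, which understate the change of genes near or below 1 FPKM, and a gene was called higher or lower when this ratio reached 1 or -1, a 2-fold difference, among the 12859 genes that reached 1 FPKM in at least 1 library. Of the 10 prostaglandin genes, 8 passed that minimum, and PTGIS and HPGD did not. In RNA of whole cultures, fewer cells expressing a gene and less RNA per cell cannot be told apart.

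The summed FPKM of all genes ranged from 538072 to 617857 per library, and between 11956 and 12421 genes reached 1 FPKM. Of 9 osteoblast markers, 6 reached 1 FPKM, and their summed level was 2024 FPKM at day 0, 4332 at day 3, 3721 at day 6 and 3013 at day 9. Nearly all of this sum came from COL1A1 (777, 1974, 1587 and 1146 FPKM), SPARC (1113, 1469, 1351 and 1275) and COL1A2 (125, 856, 753 and 561). RUNX2, the master transcription factor of the osteoblast lineage, was at 7.37, 26.2, 19.3 and 18.2 FPKM in the same order. Of the markers, 5 were called higher on at least 1 later day and 0 lower, beside 12.1% and 8.97% of the 12859 genes. Among the 5 were ALPL, the alkaline phosphatase of mineralizing cells, at 0.294, 4.32, 4.35 and 4.18 FPKM, and SPP1, the matrix protein osteopontin, at 0.794, 1.89, 5.14 and 7.45 FPKM. The remaining markers, SPARC aside, were the osteoblast transcription factor SP7 and the matrix proteins BGLAP and IBSP, which stayed below 1 FPKM in every library. The summed level of 14 markers of leukocytes, endothelium, epithelium, fat and cartilage was 3.67 FPKM on day 0 and between 2.16 and 2.32 FPKM later. Of the 14, 1 reached 1 FPKM, the leukocyte marker CD14, at 1.07, 0.398, 0.632 and 0.428 FPKM on days 0, 3, 6 and 9. Not every marker followed the sum, as the leukocyte marker PTPRC was at 0.0750, 0.295, 0.0441 and 0.441 FPKM. CD3E and ADIPOQ were at 0 in every library.

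Prostaglandins are lipid signals made from arachidonic acid, which phospholipases free from membranes. The cyclooxygenases turn it into the unstable intermediate PGH2, terminal synthases convert PGH2 into PGE2, prostacyclin and the other prostanoids, and HPGD oxidizes the products to inactive forms. The products leave the cell and act on G protein-coupled receptors. In bone, PGE2 is known to act on osteoblasts through the EP2 and EP4 receptors, which raise cyclic AMP, and PTGS2 is the inducible cyclooxygenase that osteoblasts switch on in response to cytokines, loading and injury.

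The genes on which the results turn are PTGS2, PTGES, PTGFR and PTGER4, and the 250 bases before their start sites are shown because the first 3 were the genes past the 2-fold limit and PTGER4 was the PGE2 receptor with the higher level. The sequences are those of RefSeq on GRCh38.p14, each read 5′ to 3′ on the strand of its gene. They lie at chr1:186680424-186680673 on the minus strand for PTGS2, chr9:129753043-129753292 on the minus strand for PTGES, chr1:78490724-78490973 on the plus strand for PTGFR and chr5:40679665-40679914 on the plus strand for PTGER4. Capitals mark matches to the motifs searched, on either strand.
PTGS2: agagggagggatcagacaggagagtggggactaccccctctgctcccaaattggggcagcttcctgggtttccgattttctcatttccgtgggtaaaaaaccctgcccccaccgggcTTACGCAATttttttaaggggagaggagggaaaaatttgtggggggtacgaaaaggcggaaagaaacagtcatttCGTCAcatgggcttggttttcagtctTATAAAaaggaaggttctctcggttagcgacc
PTGES: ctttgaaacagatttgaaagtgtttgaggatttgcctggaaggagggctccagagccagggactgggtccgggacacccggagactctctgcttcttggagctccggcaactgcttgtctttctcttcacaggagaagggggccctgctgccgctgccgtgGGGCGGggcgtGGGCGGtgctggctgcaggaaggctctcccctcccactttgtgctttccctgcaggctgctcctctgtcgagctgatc
PTGFR: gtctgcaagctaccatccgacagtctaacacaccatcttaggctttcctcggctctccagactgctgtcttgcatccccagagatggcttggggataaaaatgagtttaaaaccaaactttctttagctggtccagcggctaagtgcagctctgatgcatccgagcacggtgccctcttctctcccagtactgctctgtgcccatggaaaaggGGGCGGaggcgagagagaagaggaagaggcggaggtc
PTGER4: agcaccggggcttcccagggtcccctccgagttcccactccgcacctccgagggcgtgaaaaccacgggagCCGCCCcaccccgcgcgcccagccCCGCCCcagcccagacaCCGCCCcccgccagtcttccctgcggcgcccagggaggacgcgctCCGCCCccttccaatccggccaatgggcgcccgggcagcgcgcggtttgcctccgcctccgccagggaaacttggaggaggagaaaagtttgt
A match says only that these letters are present. The motifs searched on both strands were TATAAA (the TATA box), TGACGTCA and its part TGACG (the full and partial cyclic AMP response element, which overlap), CACGTG (the E-box), GGGANTTTC (NF-κB), GGGCGG (the GC box of SP1) and TTNNGNAAT (C/EBP).

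The PTGS2 sequence held TATAAA from 32 to 27 bases before the start, TGACG on the reverse strand (printed as CGTCA) from 58 to 54 bases before it, and TTNNGNAAT from 133 to 125 bases before it. In 35116 windows of the same table, which run from 250 bases before to 50 bases after a start, TATAAA was found in 11.5%, TGACG in 24.6% and TTNNGNAAT in 11.0%. The PTGES sequence, with a GC content of 61.2%, held GGGCGG beginning 89 and 78 bases before the start. The PTGFR sequence held GGGCGG beginning 37 bases before the start, and that of PTGER4 held it on the reverse strand beginning 179, 155, 138 and 93 bases before the start. GGGCGG was found in 45.0% of all windows. The remaining motifs, TGACGTCA (in 1.85% of all windows), CACGTG (7.26%) and GGGANTTTC (1.28%), had no match in these 4 windows. Each motif was searched as a fixed pattern, so a binding site with other letters is missed. The lack of a match, for NF-κB in PTGS2 as for the others, does not show that a site is absent. A start-site window was matched for 9 of the 10 genes, 13 windows in all.

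PTGS2 was the only one of the 10 genes called higher on day 9, and PTGES the only one called lower, and PTGES was lower on all 3 later days. PTGFR was the only gene called higher on day 3. The other tested genes, PTGS1, PTGES2, PTGES3, PTGER2 and PTGER4, stayed within the limit in every later library on the scale of FPKM + 1.

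**Figure D1:**
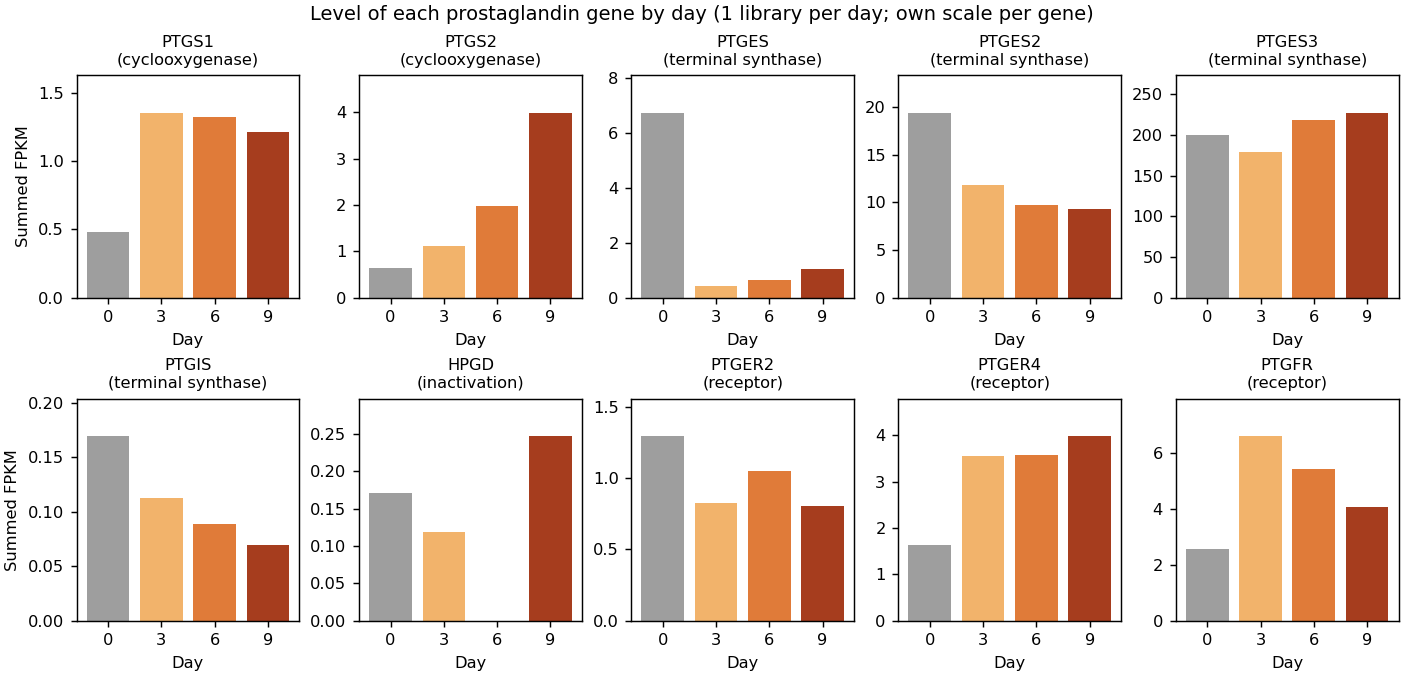
Summed FPKM of the 10 prostaglandin genes (y axis, own scale in each panel, starting at 0) on days 0, 3, 6 and 9 (x axis), with 1 bar per library and no error bars because each day has 1 library. PTGS2 is highest at day 9 at 3.999 FPKM, PTGES is highest at day 0 at 6.74 FPKM, and HPGD has no bar at day 6 because it is listed at 0.

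PTGS2 (ENSG00000073756), the inducible cyclooxygenase, was at 0.645 FPKM at day 0, 1.11 at day 3, 1.97 at day 6 and 3.999 at day 9. The level was higher at each step of the series, and day 9 stood apart from the other libraries. The FPKM ratio to day 0 was 1.73, 3.05 and 6.20 on days 3, 6 and 9. On the log2 scale of FPKM + 1 the differences from day 0 were 0.36, 0.85 and 1.60, of which that of day 9 passed the limit, and with 0.1 added in place of 1 that of day 6 did so too, at 1.47. The steps between neighbouring libraries were 0.49 from day 3 to day 6 and 0.75 from day 6 to day 9. By level, PTGS2 stood at place 12275 of the 12859 tested genes on day 0 and at place 10203 on day 9, so it stayed among the weakly expressed genes. Among the tested genes, 634, or 4.93%, were likewise higher at every step and at least 2-fold higher at day 9.

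PTGS1 (ENSG00000095303), the cyclooxygenase that most tissues express constitutively, was at 0.478 FPKM at day 0, 1.36 at day 3, 1.32 at day 6 and 1.21 at day 9. The 3 later libraries lay close together, above day 0. The log2 differences of FPKM + 1 from day 0 were 0.67, 0.65 and 0.58, within the limit. PTGS1 lies near the value of 1 that was added, and with 0.1 added in its place the differences were 1.33, 1.30 and 1.18, past the limit on all 3 days. With the most abundant transcript alone and 1 added, they were only 0.07, 0.16 and 0.11.

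Within a library the ratio of 2 genes does not depend on how the library was scaled. PTGS2 made up 57.4% of the summed PTGS1 and PTGS2 FPKM at day 0, 45.0% at day 3, 59.8% at day 6 and 76.7% at day 9. The share of PTGS2 was lowest on day 3, where PTGS1 was the higher of the pair, and highest on day 9. On days 0 and 3 both genes lay near or below 1 FPKM, and with no replicate their order there is not established. The sum of both cyclooxygenases was 1.12, 2.47, 3.29 and 5.21 FPKM on days 0, 3, 6 and 9, higher at each step.

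PTGES (ENSG00000148344), the inducible membrane-bound synthase usually coupled to PTGS2, was at 6.74 FPKM at day 0, 0.425 at day 3, 0.650 at day 6 and 1.03 at day 9. Day 0 stood far above the other libraries, and the 3 later libraries rank by day from lowest to highest. The day 0 level was 15.9 times that of day 3 and 6.53 times that of day 9, and the day 9 level was 2.43 times that of day 3. The 3 later values lay near or below 1 FPKM, so their order and the size of these ratios are uncertain. On the log2 scale of FPKM + 1 the differences from day 0 were -2.44, -2.23 and -1.93, past the limit on every later day, and the steps from day 3 to day 6 and from day 6 to day 9 were 0.21 and 0.30. PTGES stood at place 8839 of the tested genes at day 0 and at place 12761 at day 3.

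PTGES and PTGS2, whose products act in sequence, therefore stood in opposite order at day 0 and later. On day 0 the PTGES level was 10.5 times that of PTGS2. The ratio of PTGS2 to PTGES was 0.0957 at day 0, 2.62 at day 3, 3.03 at day 6 and 3.87 at day 9. PTGS2 was the lower of the pair on day 0 and the higher in every later library. On day 3 both values lay near or below 1 FPKM.

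**Figure D2:**
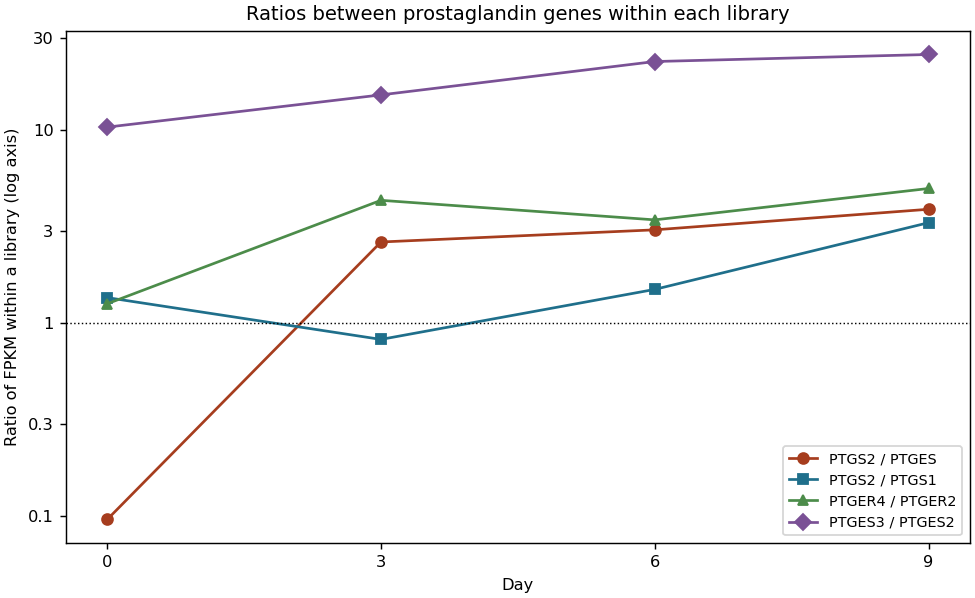
Ratio of the FPKM of 2 genes within the same library (y axis, logarithmic) on days 0, 3, 6 and 9 (x axis), for PTGS2 to PTGES, PTGS2 to PTGS1, PTGER4 to PTGER2 and PTGES3 to PTGES2. Each point is 1 library, lines join the days, and the dotted line marks equal levels, which the PTGS2 to PTGES ratio crosses from 0.0957 at day 0 to 2.62 at day 3.

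PTGES2 (ENSG00000148334), a membrane-associated synthase expressed in many tissues, was at 19.5 FPKM at day 0, 11.8 at day 3, 9.70 at day 6 and 9.28 at day 9. Day 0 was the highest and day 9 the lowest library. The log2 differences of FPKM + 1 from day 0 were -0.68, -0.93 and -0.99, the last just inside the limit, and with 0.1 added in place of 1 the day 9 difference was -1.06. The FPKM ratio of day 0 to day 9 was 2.10.

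PTGES3 (ENSG00000110958), a cytosolic synthase better known as p23, a co-chaperone of HSP90, was at 201 FPKM at day 0, 179 at day 3, 219 at day 6 and 228 at day 9. The highest library was 1.27 times the lowest, and PTGES3 ranked between place 314 and place 423 of the tested genes. The log2 differences of FPKM + 1 from day 0 were -0.17, 0.13 and 0.18, and that of day 3 turned to 0.03 when each library was rescaled to the same sum. PTGES3 made up 88.4% of the summed FPKM of the 3 PGE synthase genes on day 0 and 93.6%, 95.5% and 95.7% on days 3, 6 and 9. The ratio of PTGES3 to PTGES2 was 10.3 at day 0, 15.1 at day 3, 22.6 at day 6 and 24.5 at day 9, so the gap between the constitutive pair was wider in each later library. The share of PTGES in the sum of PTGES and PTGES2, the membrane-bound pair, was 25.7% on day 0 and 3.47%, 6.28% and 10.02% on days 3, 6 and 9.

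PTGIS (ENSG00000124212), which makes prostacyclin, was at 0.170, 0.112, 0.0884 and 0.0698 FPKM on days 0, 3, 6 and 9. HPGD (ENSG00000164120), which starts the breakdown of prostaglandins, was at 0.171 FPKM at day 0, 0.118 at day 3, listed at 0 at day 6 and at 0.248 at day 9. Both stayed well below the minimum of 1 FPKM in every library, and no direction is read from these values.

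**Figure D3:**
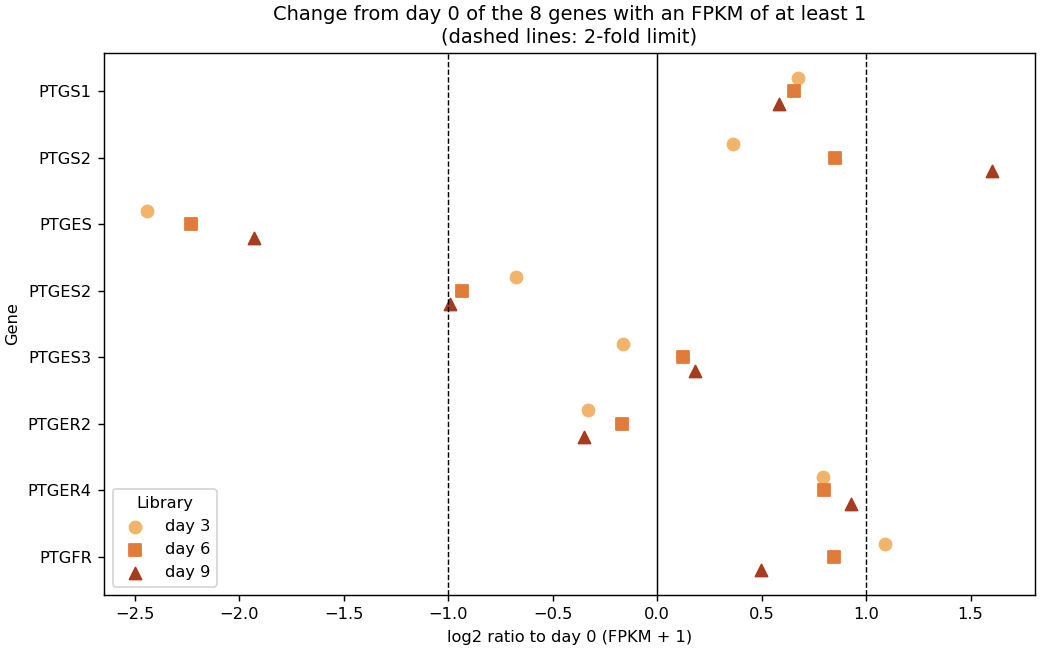
Log2 ratio of FPKM + 1 to day 0 (x axis) for the 8 prostaglandin genes that reached 1 FPKM (y axis), with 1 point each for days 3, 6 and 9, offset vertically for legibility. Dashed lines mark the 2-fold limit, which PTGES passes on all 3 days (-2.44 to -1.93), PTGS2 at day 9 (1.60) and PTGFR at day 3 (1.09), and the day 3 point of PTGES3 is the one that changes side when libraries are rescaled to the same sum.

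PTGFR (ENSG00000122420), the receptor of prostaglandin F2α, was at 2.58 FPKM at day 0, 6.63 at day 3, 5.45 at day 6 and 4.06 at day 9. Day 3 was the highest library, and the level was lower at each later step while staying above day 0. The log2 differences of FPKM + 1 from day 0 were 1.09, 0.85 and 0.50, so only that of day 3 passed the limit, and with 0.1 added in place of 1 that of day 6 did so too, at 1.05. The steps from day 3 to day 6 and from day 6 to day 9 were -0.24 and -0.35.

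PTGER4 (ENSG00000171522), the EP4 receptor of PGE2, was at 1.63 FPKM at day 0, 3.56 at day 3, 3.58 at day 6 and 3.997 at day 9. The later libraries lay close together at more than 2 times the day 0 FPKM, with ratios of 2.19, 2.19 and 2.45. After 1 was added the log2 differences were 0.79, 0.80 and 0.93, within the limit, and with 0.1 added they were 1.08, 1.09 and 1.24, past it.

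PTGER2 (ENSG00000125384), the EP2 receptor of PGE2, was at 1.30 FPKM at day 0, 0.827 at day 3, 1.05 at day 6 and 0.806 at day 9. The values lay around 1 FPKM in every library, with log2 differences of FPKM + 1 of -0.33, -0.17 and -0.35 from day 0. The difference of day 6 was 0.05 when the most abundant transcript alone was used.

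The order of the PGE2 receptors was the same in every library, and the gap between them was not. The ratio of PTGER4 to PTGER2 was 1.25 at day 0, 4.31 at day 3, 3.41 at day 6 and 4.96 at day 9. PTGER4 was thus close to PTGER2 before the temperature shift and at several times its level in each later library. The ratio of PTGFR to PTGER4 was 1.58, 1.86, 1.52 and 1.02 on days 0, 3, 6 and 9. The summed level of the 3 receptors was 5.51 FPKM at day 0, 11.0 at day 3, 10.1 at day 6 and 8.86 at day 9.

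In order of level, day 0 ran PTGES3, PTGES2, PTGES, PTGFR, PTGER4, PTGER2, PTGS2, PTGS1, HPGD and PTGIS. On day 9 it ran PTGES3, PTGES2, PTGFR, PTGS2, PTGER4, PTGS1, PTGES, PTGER2, HPGD and PTGIS. PTGES went from place 3 of the 10 to place 7, and PTGS2 from place 7 to place 4. On day 9 PTGFR, PTGS2 and PTGER4 lay between 3.997 and 4.06 FPKM, and with no replicate their order is not established. PTGES3 and PTGES2 held the first places in all 4 libraries.

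Against all tested genes, 1 of the 8 was higher on day 3, where 8.13% of all genes were, and 1 of the 8 was lower, where 5.3% of all genes were. On day 6, 0 were higher and 1 was lower, beside 9.01% and 6.42% of all genes. On day 9, 1 was higher and 1 was lower, beside 9.6% and 6.52%. On all 3 days together, 0 were higher and PTGES was lower, beside 5.93% and 3.45% of all genes. On any of the 3 days, 2 were higher and 1 was lower, beside 12.1% and 8.97% of all genes. From day 3 to day 6 and from day 6 to day 9, 0 of the 8 were called, beside 0.607% higher and 0.443% lower at the former step and 0.381% and 0.163% at the latter. With 8 genes, counts of 0 to 2 cannot be set apart from these shares. The 3 comparisons with day 0 share that library. The median log2 difference of the 8 genes from day 0 was 0.10, 0.39 and 0.34 on days 3, 6 and 9, and that of all tested genes was -0.08, -0.08 and -0.09. The all-gene median moved to 0.12, 0.10 and 0.03 when each library was rescaled to the same sum.

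Of the 10 genes, PTGS2, PTGES, PTGIS and PTGER4 have 1 transcript in the table. PTGES3 was carried in every library by ENST00000262033, which held 81.0% of its FPKM on day 0 and 78.7% on day 9. ENST00000448157 of PTGES3 was at 4.88 FPKM on day 0 and at 13.7, 15.8 and 15.6 on days 3, 6 and 9. It held 2.43% of the gene's FPKM on day 0 and 7.66% on day 3, so a minor transcript was higher while the gene's total moved little.

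PTGFR was carried by ENST00000370757, at 1.85, 5.88, 5.30 and 3.75 FPKM on days 0, 3, 6 and 9. The second transcript, ENST00000370756, was at 0.734, 0.749, 0.149 and 0.311 FPKM, and ENST00000370758 was at 0 in every library. The higher PTGFR level at day 3 therefore lay in ENST00000370757, whose share was 71.6% at day 0 and 88.7% at day 3.

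PTGES2 was carried by ENST00000338961, at 13.0, 6.07, 5.85 and 6.23 FPKM. ENST00000449878 of PTGES2 was at 1.15 FPKM at day 0, 2.71 at day 3, 1.69 at day 6 and 0.631 at day 9, so it was highest in a library in which the gene's total was below day 0. The share of ENST00000338961 was 66.7% at day 0, 51.4% at day 3, 60.2% at day 6 and 67.1% at day 9.

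PTGS1 had no stable main transcript. ENST00000223423 held 71.8% of its FPKM at day 0, 29.8% at day 3, 38.2% at day 6 and 36.8% at day 9, while ENST00000373698 held 0% at day 0, 63.8% at day 3, almost none at day 6 and 39.4% at day 9. At a total between 0.478 and 1.36 FPKM, these shares rest on low values, and their error is unknown. Of the 9 HPGD transcripts, 2 were at 0 in every library. PTGER2 had ENST00000245457 at 0.813, 0.479, 0.877 and 0.806 FPKM and ENST00000557436 at 0.487, 0.348, 0.171 and 0 FPKM.

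**Figure D4:**
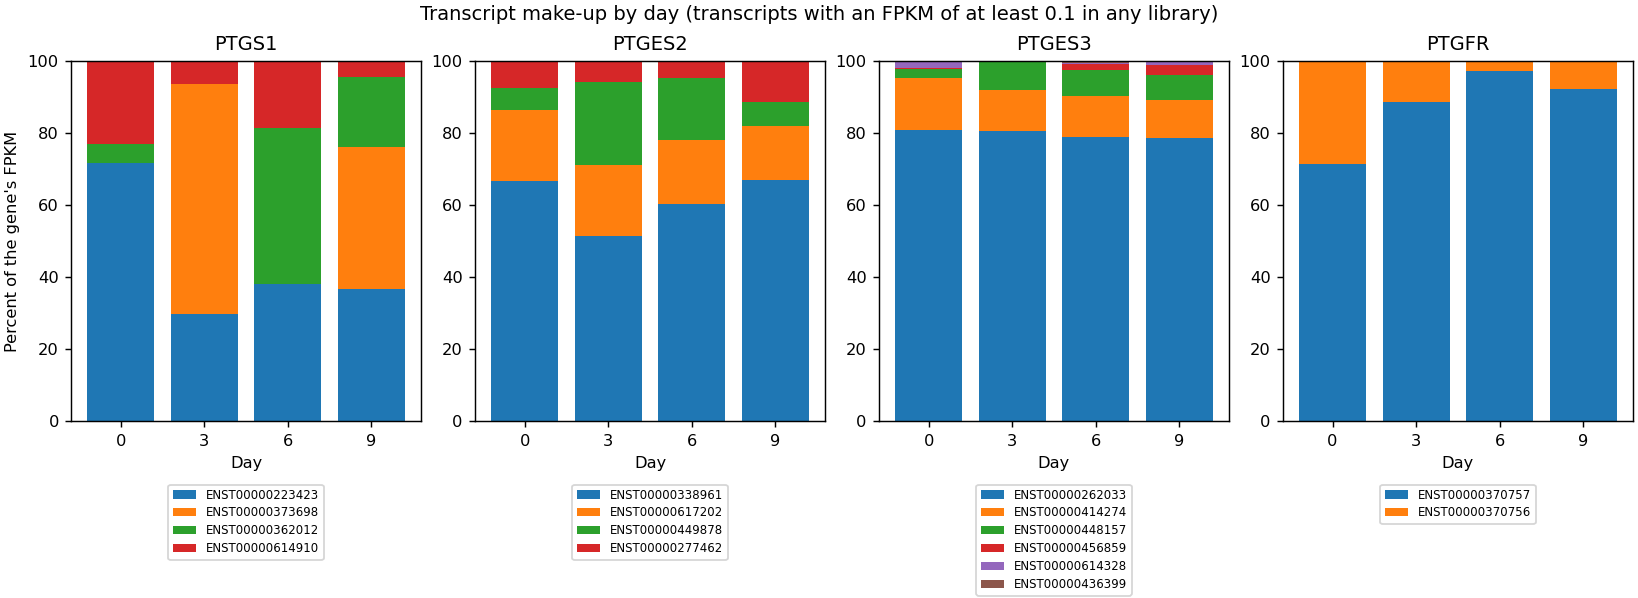
Share of the summed FPKM of PTGS1, PTGES2, PTGES3 and PTGFR held by each transcript (y axis, percent) on days 0, 3, 6 and 9 (x axis), for transcripts that reached 0.1 FPKM in any library, with 1 stacked bar per library. PTGES3 and PTGFR keep the same leading transcript in every library, while the make-up of PTGS1, at no more than 1.36 FPKM in total, differs from day to day.

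Other genes of the pathway were taken from 7 lists with 74 genes. Counts for these lists are of genes called on any later day unless a day is given, and over all tested genes 12.1% were higher and 8.97% lower by that measure. Upstream of the cyclooxygenases, 7 of 11 genes of arachidonate release and reuptake reached 1 FPKM, 3 were called higher and 0 lower, and PLA2G5 was at 0 in every library. The median log2 difference of the 7 genes was 0.30, 0.14 and 0.29 on days 3, 6 and 9, beside -0.08, -0.08 and -0.09 over all tested genes. PLA2G4C, a cytosolic phospholipase A2, was at 1.05, 2.62, 7.74 and 5.76 FPKM on days 0, 3, 6 and 9, with log2 differences of 0.82, 2.09 and 1.72. PLA2G6, a calcium-independent phospholipase A2, was at 1.45, 5.22, 5.40 and 3.73 FPKM, with log2 differences of 1.35, 1.39 and 0.95, of which that of day 3 was 0.45 with the most abundant transcript alone. PLA2G4B was at 0.145, 2.36, 0.171 and 0 FPKM, with a log2 difference of 1.55 on day 3, and shares its sequence with the readthrough gene JMJD7-PLA2G4B at 1.51, 3.79, 3.77 and 3.27 FPKM, so its value is uncertain. PLA2G4A, the phospholipase best known for feeding PTGS2, stayed below the minimum at 0.668 to 0.967 FPKM.

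Of 12 other enzymes and transporters of prostanoids, 7 reached 1 FPKM, 0 were called higher and 1 lower, counts that cannot be set apart from the 12.1% and 8.97% of all genes. The list's median log2 difference was 0.07, 0.16 and 0.35, beside -0.08, -0.08 and -0.09 over all genes. FAM213B, which encodes a prostamide and prostaglandin F synthase, was at 10.3, 8.03, 7.33 and 4.17 FPKM on days 0, 3, 6 and 9, with a log2 difference of -1.13 on day 9, which was -0.69 with the most abundant transcript alone. AKR1B1, the terminal synthase with the highest level in the list, was at 43.2, 37.9, 48.4 and 63.2 FPKM. Its log2 differences were -0.18, 0.16 and 0.54, within the limit. PTGDS, HPGDS and TBXAS1, the synthases of prostaglandin D2 and thromboxane, stayed below 1 FPKM in every library, as PTGIS did.

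Of 7 genes for other prostanoid receptors and the receptor-associated PTGFRN, 3 reached 1 FPKM, 1 was called higher and 0 lower, beside 12.1% and 8.97% of all genes. PTGIR, the prostacyclin receptor, was at 0.895 FPKM at day 0, 2.23 at day 3, 3.55 at day 6 and 3.98 at day 9, with log2 differences of 0.77, 1.26 and 1.40. PTGIR was past the limit on days 6 and 9, in libraries in which the prostacyclin synthase PTGIS was below 0.1 FPKM. PTGER1 and PTGER3, the remaining PGE2 receptors, were at no more than 0.128 FPKM in any library.

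Among 14 cytokines, transcription factors and RNA-binding proteins known to act on PTGS2, 13 reached 1 FPKM, and 4, 5 and 5 were called higher on days 3, 6 and 9, beside 8.13%, 9.01% and 9.6% of all genes. On each of these days 0 were called lower, beside 5.3%, 6.42% and 6.52% of all genes. The median log2 difference of the list was 0.36, 0.37 and 0.65, beside -0.08, -0.08 and -0.09 over all genes. IL1B, a cytokine known to induce PTGS2, was at 5.41 FPKM at day 0, 43.9 at day 3, 127 at day 6 and 280 at day 9, with log2 differences of 2.81, 4.32 and 5.46. IL1A was at 1.37, 4.68, 19.5 and 44.8 FPKM, with log2 differences of 1.26, 3.11 and 4.27. Like PTGS2, both cytokines were higher at each step, and so were CEBPB and NFKBIA of the same list. Among all tested genes, 1530, or 11.9%, were higher at each step.

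CEBPB, a C/EBP transcription factor, was at 21.9, 39.7, 58.2 and 71.6 FPKM on days 0, 3, 6 and 9, with log2 differences of 0.83, 1.37 and 1.66. Its relative CEBPD was at 7.17, 27.1, 21.2 and 23.2 FPKM, with log2 differences of 1.78, 1.44 and 1.57. ZFP36L1, which binds AU-rich mRNA and promotes its decay, was at 34.1, 138, 158 and 154 FPKM, with log2 differences of 1.99, 2.18 and 2.14. The list thus held genes known to raise PTGS2 and a gene of mRNA decay on the higher side. Within the limit, ELAVL1, ZFP36 and RELA lay below day 0 on every later day, and IL1R1, TNFRSF1A and NFKBIA lay above it. TNF stayed below 0.1 FPKM in every library. No relation of these genes to the PTGS2 level was tested.

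Downstream of the EP2 and EP4 receptors, 9 of 11 target genes of cyclic AMP reached 1 FPKM, 2 were called higher and 1 lower, beside 12.1% and 8.97% of all genes. The list's median log2 difference was -0.07, 0.14 and 0.42, beside -0.08, -0.08 and -0.09 over all genes. PDE4B, a phosphodiesterase that breaks down cyclic AMP, was at 1.91, 5.36, 6.96 and 11.98 FPKM on days 0, 3, 6 and 9, with log2 differences of 1.13, 1.45 and 2.16. AREG, a ligand of the EGF receptor, was at 3.16, 16.3, 10.7 and 14.97 FPKM, with log2 differences of 2.06, 1.49 and 1.94. PER1, a clock gene that cyclic AMP induces, was at 14.0, 4.89, 6.46 and 8.02 FPKM, with log2 differences of -1.35, -1.01 and -0.73. The list did not move in 1 direction. With the most abundant transcript alone, PDE4B was within the limit on day 3 at 0.62 and PER1 on days 3 and 6 at -0.67 and -0.63.

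Of 7 HSP90 partners of PTGES3, all were tested and 0 were called in either direction, beside 12.1% higher and 8.97% lower among all genes. Their median log2 difference was -0.56, -0.48 and -0.37, beside -0.08, -0.08 and -0.09 over all genes. HSP90AA1, the inducible HSP90, was at 506, 491, 614 and 591 FPKM on days 0, 3, 6 and 9, and HSP90AB1, the constitutive form, was at 433, 243, 289 and 301 FPKM. In the leukotriene branch, 4 of 12 genes reached 1 FPKM, 1 was called higher and 0 lower, beside 12.1% and 8.97% of all genes. ALOX5, the lipoxygenase that starts leukotriene synthesis from arachidonate, was at 0.0339, 2.39, 1.23 and 1.19 FPKM, with log2 differences of 1.71, 1.11 and 1.09. With the most abundant transcript alone, those of days 6 and 9 were 0.91 and 0.95.

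**Figure D5:**
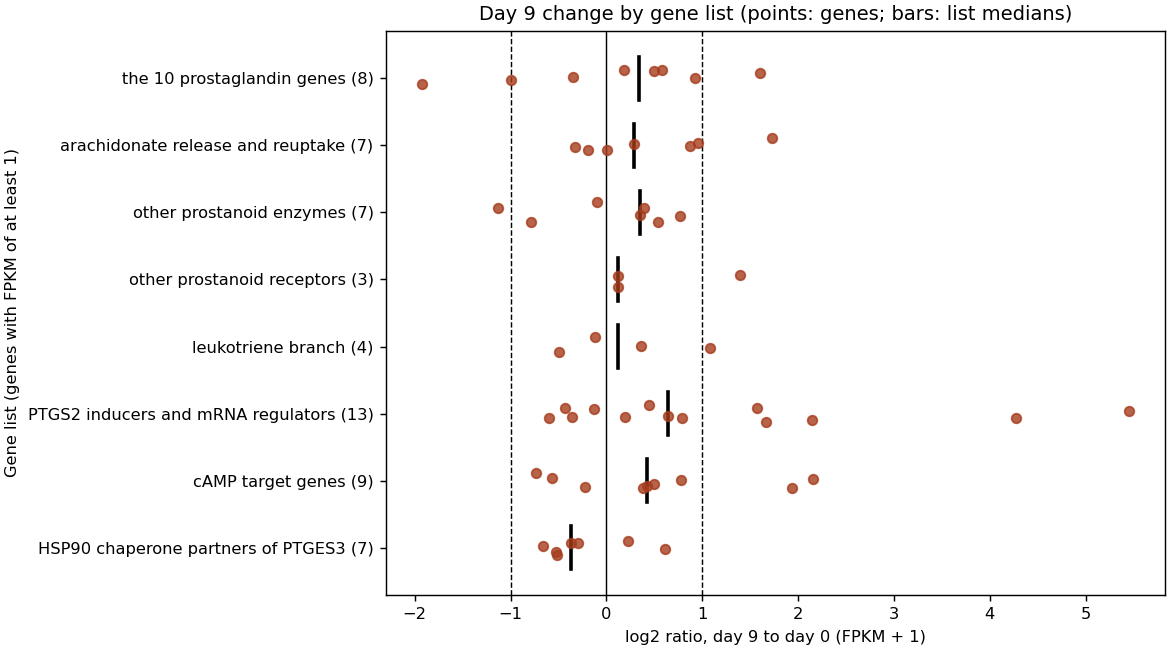
Log2 ratio of FPKM + 1 of day 9 to day 0 (x axis) for the tested genes of the 10 prostaglandin genes and of the 7 pathway lists (y axis, number of tested genes in brackets), with points for genes, short bars for list medians and dashed lines at the 2-fold limit. The points farthest to the right are IL1B at 5.46 and IL1A at 4.27, and the leftmost is PTGES at -1.93.

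The genes with the pattern most like that of PTGS2, by Euclidean distance over the 3 log2 differences from day 0, were P2RY6 (0.146), TRNP1 (0.200), PLIN2 (0.210), PEG10 (0.216) and ABLIM3 (0.257). P2RY6, a nucleotide receptor, was at 0.680, 1.01, 1.92 and 3.80 FPKM on days 0, 3, 6 and 9. For PTGS1 the nearest were NEDD9 (0.0341), C6orf1 (0.0390), KIRREL (0.0432), NEMP1 (0.0497) and RIN2 (0.0508). NEDD9 was at 14.5, 23.8, 22.8 and 22.1 FPKM on days 0, 3, 6 and 9, and PTGS1 at 0.478, 1.36, 1.32 and 1.21. The FPKM ratios to day 0 were thus smaller for NEDD9 than for PTGS1. For PTGES they were IQCK (0.252), SPOCD1 (0.275), ARL6IP1 (0.341), PRSS3 (0.367) and TAGLN (0.401). TAGLN, a smooth muscle and fibroblast actin-binding protein, was at 839, 126, 153 and 195 FPKM, high on day 0 and lowest on day 3 as PTGES was. The distances use FPKM + 1, which understates the change of genes near or below 1 FPKM. A better expressed neighbour can therefore lie near such a gene with a smaller FPKM ratio. Likeness over 4 libraries is a description.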

How the data were processed

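Total RNA of hFOB 1.19 cells was sequenced at 4 time points, 1 library each, from 5 µg of RNA depleted of ribosomal RNA. The sources describe an RNase R treatment for the mRNA libraries and not for the circRNA libraries, and whether it touched the levels used here is not known. The study's methods name Bowtie and TopHat, whereas the submitters' processing notes name Bowtie 0.12.2 and mm8, a mouse build. The transcript IDs are human, and the program and the build behind the FPKM are not given in the sources used here. The authors deposited FPKM per transcript, already scaled to library size and transcript length. They also deposited 9 comparison tables with fold changes, p-values and q-values. Those tables and the circRNA counts, whose IDs pair with no gene in the files, were not used, which left 26 columns of values per library unread.

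FPKM were summed per symbol, 1 was added, and log2 ratios were taken. A difference of at least 2-fold was called, among genes with at least 1 FPKM in any library. The rule was tested on simulated data with changes far past the limit in better expressed genes. That test does not cover changes near the limit or genes near 1 FPKM. With 1 library per time point, no count model or test could be used, and FPKM carry no depth. The genes named are the 10 prostaglandin genes, each listed pathway gene past the limit on any day, and the 5 genes nearest in pattern to PTGS2, PTGS1 and PTGES; listed genes named with values within the limit or below the minimum, and HSP90AA1 and HSP90AB1, were chosen after their values were seen. The prostaglandin genes and lists were chosen with earlier results of these data known. Of 4583 lncRNA transcripts, 0 carry the name of a prostaglandin gene. The alternatives covered 9 settings of the added value, scaling (by the upper quartile of each library, or so that all libraries have the same sum), minimum, transcript level and fold limit. Computations used Python 3.11.15 with numpy 2.4.6 and pandas 2.3.3, and matplotlib 3.10.9 drew the plots.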

Additional observations from a re-analysis of the deposited data

How the results depend on the processing

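No paired analysis was possible because there is 1 library per time point, and no replicate could be left out. No called prostaglandin gene changed direction or lost its call under another added value, scaling or transcript level. When 0.1 rather than 1 was added to the FPKM, the prostaglandin genes called higher numbered 3, 4 and 3 on days 3, 6 and 9 and 2 were lower on day 9. With 0.5 added, 1 was higher on day 6, 2 were higher on day 9 and 2 were lower on day 9. With libraries rescaled to the same sum, 2, 3 and 2 were higher on days 3, 6 and 9. With the most abundant transcript alone, 1 was higher and 2 were lower on day 6. At a limit of 1.5-fold, 3, 4 and 2 were higher and 2, 2 and 2 lower on days 3, 6 and 9, and 1 was higher on day 9 against day 6. At 4-fold, 0 were higher on day 3, and 0 were higher and 0 lower on day 9. Rescaling by the upper quartile, no minimum and a minimum on the mean changed no count of these genes. The added value and the limit change counts by construction, and the cause of the other shifts was not tested.

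Of all called genes, 60.6%, 58.4% and 59.6% were higher on days 3, 6 and 9, against 72.2%, 70.3% and 67.7% after upper-quartile rescaling and 77.8%, 74.7% and 68.6% after rescaling to the same sum. Over all genes, the counts higher and lower on days 3, 6 and 9 were 1046 and 681, 1158 and 825, and 1234 and 838. At 1.5-fold they were 2234 and 2380, 2309 and 2586, and 2330 and 2629. At 4-fold they were 214 and 99, 259 and 119, and 301 and 133. The same alternatives for the pathway genes were chosen after seeing the data. Counted over genes, days and settings, 9 of 165 called values lost their call and 0 reversed, and 12 of 45 values not called gained one. The gains were in PLA2G4C, PTGIR and CEBPB on day 3 and in PLA2G6 (higher) and PLA2G4B (lower) on day 9. With the most abundant transcript alone, the log2 difference was 0.45 for PLA2G6, 0.62 for PDE4B and -0.67 for PER1 on day 3, 0.91 for ALOX5 and -0.63 for PER1 on day 6, and 0.95 for ALOX5 and -0.69 for FAM213B on day 9. For PER1 on day 6 it was -0.89 and -0.88 under the rescalings.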
